A study of Mus musculus with 67 samples.

Results

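The genes described are those of the transcription factor AP-1 and its companion immediate early factors: the FOS family (Fos, Fosb, Fosl1, Fosl2), the JUN family (Jun, Junb, Jund), Atf3, Egr1 and Ier2. These 10 named genes were chosen from measured values of the same libraries, so their levels and differences are a description, without p-values. Of the 10, 9 had a row in the retina table (16930 genes) and in the RPE table (16714 genes), and all 9 passed the filter on low values in both. Jund is not analysed here.

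The data are 33 RNA libraries from retina and retinal pigment epithelium (RPE), the cell layer behind the photoreceptors, of photosensitive C57BL/6J mice. Every group, the reference NB included, carried abca4-/- rdh8-/-, so no library comes from mice with intact copies of these genes. The groups were NB, 6h, 1d and 3d, with n = 6, 3, 4 and 4 libraries in retina and n = 5, 3, 4 and 4 in RPE. The labels do not spell out NB, give no ages and do not name the event from which the times count. Each library pooled both eyes of 1 mouse. Cornea, iris and lens were cut away before the retina was lifted out, and RPE cells were then shaken from the eyecup into solution. Levels are CPM, read counts scaled by the authors to an effective library size, separately for each tissue.

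AP-1 is a dimer of proteins with a basic leucine zipper (bZIP), a region that pairs the partners and binds DNA. FOS proteins act as partners of other bZIP proteins, mostly JUN proteins, which can also pair among themselves. Many of these genes are immediate early genes: their transcription starts soon after a stimulus without new protein, and their mRNA is short lived. In the mouse retina Fos is known for its part in photoreceptor death after bright light, since mice lacking Fos are protected from it. Atf3 codes for a stress-induced bZIP protein that pairs with JUN proteins, Egr1 for a zinc finger factor, and Ier2 for a nuclear protein of the same early class.

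Promoters of Fos, Junb, Jun and Atf3 are shown because Fos, Jun and Atf3 are classic examples of genes read out through elements bound by bZIP proteins of the CREB, ATF and JUN families. The 250 bases before the annotated start are given 5′ to 3′ on the gene's strand, from RefSeq on GRCm38.p6. Capitals mark TGACG (the core of a cyclic AMP response element) and TGACNTCA (a form like the whole element, with any base at N), on either strand.
Fos: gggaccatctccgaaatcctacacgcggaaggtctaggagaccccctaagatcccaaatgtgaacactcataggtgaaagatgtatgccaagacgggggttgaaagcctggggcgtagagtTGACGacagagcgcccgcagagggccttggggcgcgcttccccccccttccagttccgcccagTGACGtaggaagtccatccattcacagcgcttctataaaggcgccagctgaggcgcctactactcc
Junb: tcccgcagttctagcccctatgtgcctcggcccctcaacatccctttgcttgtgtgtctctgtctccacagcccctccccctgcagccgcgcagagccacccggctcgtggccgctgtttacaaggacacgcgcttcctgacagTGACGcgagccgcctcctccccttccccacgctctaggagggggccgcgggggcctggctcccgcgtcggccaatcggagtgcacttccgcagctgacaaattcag
Jun: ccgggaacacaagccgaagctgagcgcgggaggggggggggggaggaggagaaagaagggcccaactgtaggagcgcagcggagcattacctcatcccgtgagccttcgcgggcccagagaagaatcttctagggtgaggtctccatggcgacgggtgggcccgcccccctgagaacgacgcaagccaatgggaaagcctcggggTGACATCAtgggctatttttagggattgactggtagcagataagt
Atf3: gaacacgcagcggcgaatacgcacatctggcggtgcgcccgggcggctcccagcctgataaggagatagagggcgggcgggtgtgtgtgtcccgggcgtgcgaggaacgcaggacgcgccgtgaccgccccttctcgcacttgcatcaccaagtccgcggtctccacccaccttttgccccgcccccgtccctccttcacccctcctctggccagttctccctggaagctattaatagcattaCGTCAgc

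These windows lie at chr12:85473640-85473889 (plus strand, Fos), chr8:84978749-84978998 (minus strand, Junb), chr4:95052223-95052472 (minus strand, Jun) and chr1:191183334-191183583 (minus strand, Atf3). Fos held TGACG at bases -129 to -125 and -66 to -62 from the start, Junb at -106 to -102, and Atf3 its reverse complement at -7 to -3. Jun held TGACATCA at -45 to -38. Of the 32851 promoters in the table (250 bases before to 50 after the start), 20.8% hold TGACG and 8.83% hold TGACNTCA, and a TGACNTCA with G in the middle counts under both. The AP-1 motif TGANTCA lies in 7.81% of promoters and in none of the 6 found for the analysed genes (Atf3, Fos, Fosb, Fosl2, Jun, Junb). The EGR motif GCGNGGGCG lies in 5.55% of promoters and matched in Fosb and Fosl2. Within this window the STAT motif TTCNNNGAA (8.30%) and the CArG box (1.63%) matched in none of the 6, all motifs being searched on both strands. Sequence farther upstream was not searched, so the absence of a motif here does not cover elements there. Fosl1, Ier2 and Egr1 had no entry.

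In retina the analysed genes were higher on average at 6h than in NB, and they parted afterwards. Fosl1 and Jun were highest at 6h and Atf3 at 1d. Junb had its highest mean at 1d, where its libraries overlapped with those of 6h. The 6h libraries were sequenced more deeply than those of 1d, so time and depth cannot be told apart between them. At 3d 7 of the 9 overlapped with NB, and the share of all genes that did so was not counted. Against NB, 8 of 9 were past the threshold as higher at 6h, 7 at 1d and 3 at 3d (limma, Benjamini-Hochberg adjusted p below 0.05 over all genes), and 0 as lower. Of all genes tested, 35.4% were past the threshold at 6h, 51.5% at 1d and 43.2% at 3d; the genes were chosen on these contrasts, so nothing is read from the counts. Their median log2 difference was 2.05, 1.65 and 0.44, beside 0.00, -0.01 and -0.02 over all genes. Against only the NB libraries of the same sequencing depth, the median of the 9 was 2.88, 1.29 and 0.11. Markers of cell types also changed in level in retina. The summed level of 8 rod markers was 59955 to 66928 CPM in NB, 35646 to 43682 at 6h, 19012 to 32898 at 1d and 31645 to 36793 at 3d. The summed level of 7 RPE markers was 324 to 496 CPM in NB and 563 to 749 at 6h, where 5 of the 7 were past the threshold as higher. That of 8 Müller glia markers was 4736 to 5336 CPM in NB, 4039 to 4639.7 at 6h, 2667 to 3037 at 1d and 5946 to 6403 at 3d. These 8 did not move together: 1 was past the threshold as higher and 3 as lower at 6h, 2 and 3 at 1d, and 7 and 0 at 3d. Their median log2 differences were 0.07, -0.14 and 0.52. The summed level of 8 endothelial markers was 284 to 318 CPM in NB, 282 to 297 at 6h, 488 to 527 at 1d and 531 to 621 at 3d. Fewer cells of a type and less RNA per cell cannot be told apart in such samples, and the part of these shifts in the results was not tested. The comparisons with NB share their NB libraries.

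**Figure D1:**
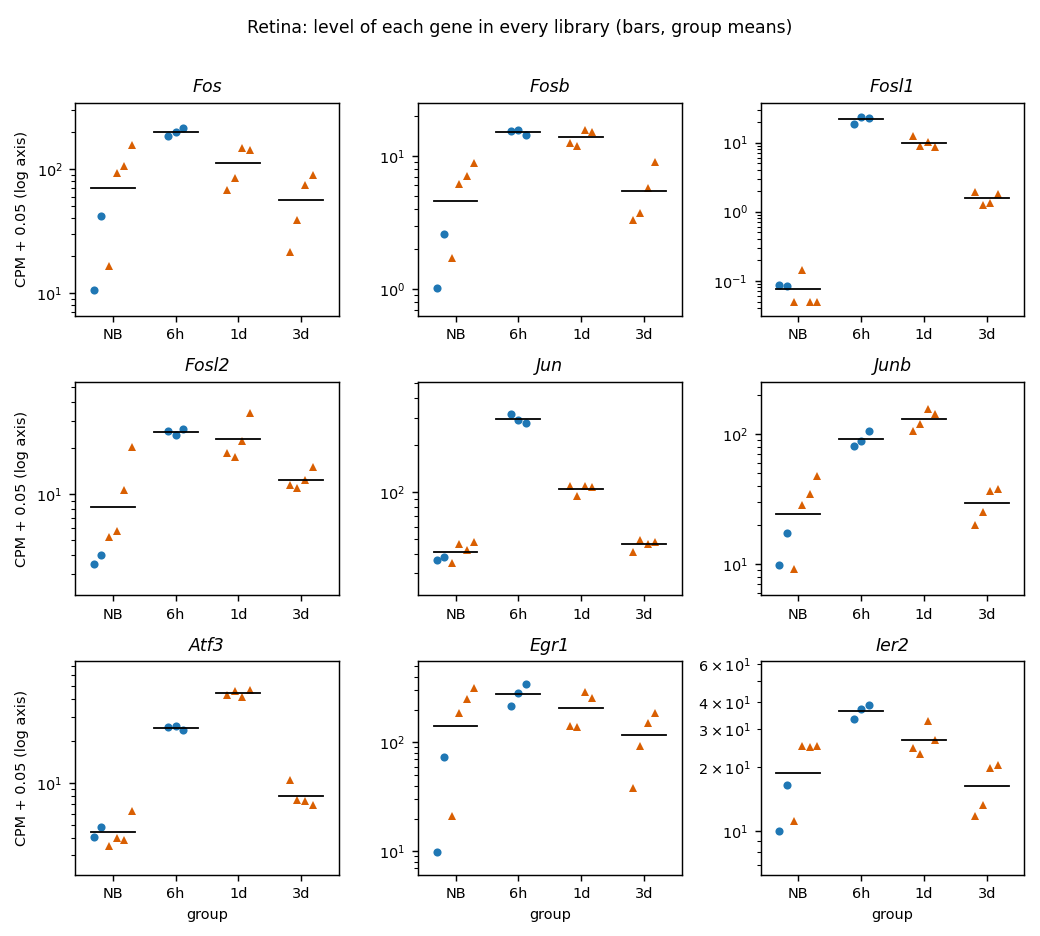
Level of each gene in every retina library, as CPM + 0.05 on a log axis, by group; circles are libraries of the deeper set, triangles of the shallower set, and bars are group means. Fosl1 lies near 0 in NB and between 18.7 and 23.6 CPM at 6h, Jun and Atf3 have narrow groups, and Fos and Egr1 are widely spread in NB (10.5 to 156 and 9.78 to 315 CPM).

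Fosl1, which codes for the FOS family protein FRA1, ranked 1 of 16926 retina genes by log2 difference at 6h. In NB 3 of 6 libraries held no Fosl1 read and the 6 together held 3 reads, so that NB levels ran from 0 to 0.0918 CPM. The 6h libraries held 18.7, 23.6 and 22.2 CPM, the 1d libraries 12.4, 8.73, 10.0 and 8.53 CPM, and the 3d libraries 1.87, 1.22, 1.29 and 1.73 CPM. Every library of each time lay above every NB library, and the times did not overlap with each other. On log2(CPM + 0.5) the differences from NB were 5.38 ± 0.15 (SE) at 6h, 4.29 ± 0.13 at 1d and 1.93 ± 0.13 at 3d, and the added 0.5 understates them. From pooled reads (3 in NB, 1775 at 6h, 439 at 1d, 87 at 3d) the ratio to NB was 756 at 6h, with an exact 95% interval of 258 to 3669. It was 344 (117 to 1673) at 1d and 53.2 (17.6 to 263) at 3d, and the intervals cover counting error only. The authors' deposited table gives log2 fold changes of 9.22, 8.10 and 5.41 for Fosl1.

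Fos, the prototype of its family, was high in some NB libraries and low in others. The NB column names differ in form, and that split is the same as the split by sequencing depth. NB libraries sequenced as deeply as 6h are called A here, and those sequenced like 1d and 3d are called B. NB held 10.5 CPM of Fos in A1, 41.9 in A2, 16.6 in B1, 92.4 in B2, 106 in B3 and 156 in B4. At 6h Fos stood at 184, 198 and 214 CPM, above every NB library. At 1d (68.0, 85.1, 149 and 142 CPM) and 3d (21.6, 38.5, 74.4 and 90.2 CPM) it overlapped with NB. The log2 differences from NB were 2.05 ± 0.64, 1.14 ± 0.58 and 0.03 ± 0.58. The 6h difference of Fos was not past the threshold without library 6h 3, and against the A libraries alone it was past it.

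Fosb, whose protein and shorter splice form accumulate in stimulated neurons, stood at 0.963 to 8.77 CPM in NB with a median of 4.31. It held 15.4, 15.6 and 14.3 CPM at 6h and 12.5, 11.8, 15.6 and 15.1 CPM at 1d, above every NB library at both times. At 3d (3.26, 3.65, 5.65 and 8.98 CPM) it overlapped with NB. The log2 differences of Fosb were 1.94 ± 0.44, 1.81 ± 0.40 and 0.44 ± 0.40.

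Fosl2, which codes for FRA2, ran from 3.46 to 20.3 CPM in NB with a median of 5.45. It held 25.8, 24.2 and 26.8 CPM at 6h, above every NB library, 18.5, 17.5, 22.3 and 33.8 CPM at 1d and 11.5, 10.9, 12.4 and 14.9 CPM at 3d. NB B4 was the 1 NB library that reached into the 1d range. Its log2 differences were 1.85 ± 0.36, 1.65 ± 0.33 and 0.82 ± 0.33, and that at 3d was not past the threshold in 11 of 17 alternatives.

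Jun, the main partner of FOS proteins, had the smallest error of the 9 genes. It stood at 34.8 to 47.9 CPM in NB with a median of 40.5, and at 318, 289 and 278 CPM at 6h. At 1d it held 109, 94.5, 109 and 108 CPM and at 3d 41.0, 49.1, 46.6 and 47.7 CPM. Every library lay above NB at 6h and 1d, while at 3d 1 of 4 did. Its log2 differences were 2.83 ± 0.09, 1.35 ± 0.08 and 0.17 ± 0.08.

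Junb, whose protein pairs with FOS proteins and is a weaker activator than JUN, stood at 9.18 to 47.5 CPM in NB with a median of 23.0. It held 80.6, 89.2 and 106 CPM at 6h and 105, 119, 158 and 144 CPM at 1d, all above NB. The 6h and 1d ranges overlapped, and the log2 difference of 1d against 6h (0.51 ± 0.41) was not past the threshold. At 3d Junb (20.1, 24.9, 36.3 and 37.6 CPM) was inside the NB range. Its log2 differences were 2.13 ± 0.38, 2.63 ± 0.35 and 0.48 ± 0.35.

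Atf3, used as a marker of injured retinal neurons, had its highest level later than Jun. NB libraries held 3.44 to 6.21 CPM with a median of 3.97, the 6h libraries 25.4, 25.4 and 23.9 CPM, and the 1d libraries 42.7, 46.0, 41.6 and 46.8 CPM. At 3d Atf3 stood at 10.4, 7.45, 7.29 and 6.84 CPM, still above every NB library. No group of Atf3 overlapped with another. The log2 differences from NB were 2.41 ± 0.14, 3.22 ± 0.13 and 0.81 ± 0.13.

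Egr1 and Ier2 had the smallest log2 differences at 6h. Egr1 held 9.78, 73.2, 20.9, 187, 248 and 315 CPM in NB A1, A2 and B1 to B4. At 6h it held 214, 282 and 345 CPM, of which 1 library lay above that range. At 1d (140.5, 138, 288 and 258 CPM) and 3d (38.5, 92.0, 152 and 186 CPM) all libraries lay inside it. The log2 differences of Egr1 were 1.81 ± 0.81, 1.31 ± 0.74 and 0.35 ± 0.74, and 3.33 at 6h against the A libraries alone.

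Ier2 stood at 10.0 to 24.9 CPM in NB with a median of 20.5, and at 33.4, 37.2 and 38.6 CPM at 6h, above every NB library. At 1d (24.3, 22.8, 32.6 and 26.5 CPM) and 3d (11.8, 13.2, 19.8 and 20.4 CPM) it overlapped with NB. Its log2 differences were 1.04 ± 0.25, 0.58 ± 0.23 and -0.13 ± 0.23, and that at 1d was not past the threshold in 8 of 17 alternatives.

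Between times the counts are likewise a description, since the genes were chosen on values of these libraries. From 6h to 1d, 3 of 9 genes were past the threshold. Jun changed by -1.48 ± 0.10 and Fosl1 by -1.08 ± 0.16 on the log2 scale, while Atf3 changed by 0.82 ± 0.15. Of all genes, 35.0% were past it. That contrast crosses the depth sets, so time and set cannot be told apart in it. From 1d to 3d 5 of 9 were past it as lower, beside 21.4% of all genes in either direction: Atf3 (-2.41 ± 0.14), Fosl1 (-2.36 ± 0.15), Junb (-2.15 ± 0.38), Fosb (-1.37 ± 0.44) and Jun (-1.18 ± 0.09). Fosb was not past it in 5 of 16 alternatives, each of which left out 1 library.

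The NB libraries of retina differed in several of these genes more than in most others. The highest NB library held 32.2 times the Egr1 level of the lowest, 14.9 times that of Fos, 9.11 times that of Fosb, 5.87 times that of Fosl2 and 5.18 times that of Junb. For Ier2, Atf3 and Jun the ratio was 2.48, 1.80 and 1.38. The median ratio over all retina genes tested, on CPM + 0.5, was 1.26. Of all genes tested, 99.9% had a smaller NB SD (log2 scale) than Egr1, 99.8% than Fos and 99.7% than Fosb, against 85.0% for Atf3 and 69.3% for Jun. The order of the 6 NB libraries was the same for Fos, Fosb and Egr1: A1, B1, A2, B2, B3, B4 from low to high. That order mixes the depth sets. NB A1 and B1 held 61204 and 59955 CPM of rod markers, and the other 4 held 63718 to 66928; the part of this in the spread was not tested.

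**Figure D2:**
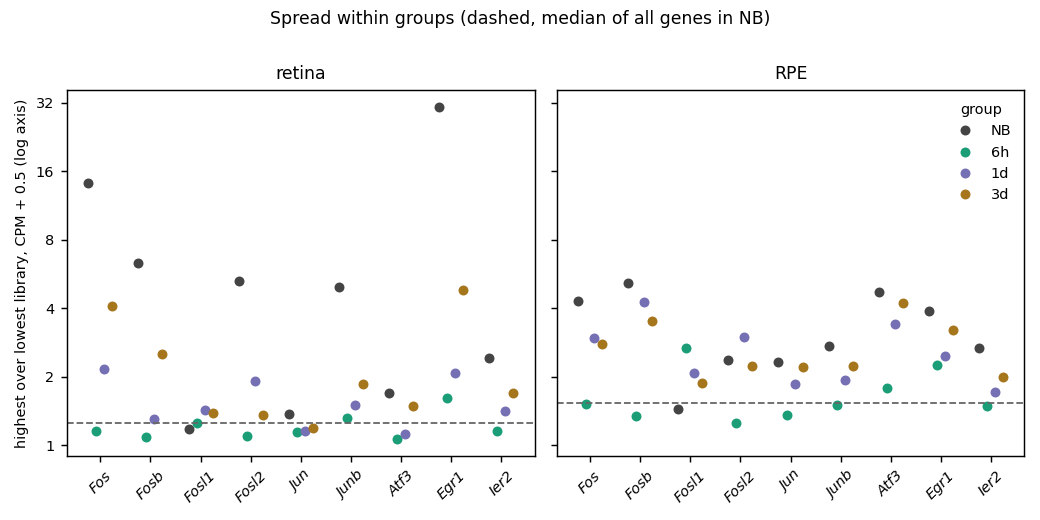
Ratio of the highest to the lowest library within each group, on CPM + 0.5 and a log axis, for each gene in retina and RPE; the dashed line is the median ratio over all genes in NB (1.26 in retina, 1.53 in RPE). In retina the Fos, Fosb and Egr1 points of NB lie far above the line, while the Jun point of NB lies near it.

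In RPE none of the 9 genes separated from NB in every library of a time. The share of all genes that did so was not counted, so nothing is read from this. With all RPE groups in 1 fit, none of the 9 was past the threshold in the 5 contrasts tested. With limma, 0 of 9 were past it at 6h (1.46% of all genes called), 1d (5.61%) and 3d (0.180%) against NB, at 1d against 6h (3.39%) and at 3d against 1d (6.58%). At an unadjusted p below 0.05 the counts were 2, 1, 4, 1 and 6 of 9. Over all 16712 genes tested they were 3036, 3613, 1659, 3973 and 4775. With edgeR on recovered reads 0 of the 9 were past the threshold in each contrast. The median log2 difference of the 9 was -0.08 at 6h, 0.23 at 1d and -0.60 at 3d, beside -0.00, 0.00 and 0.00 over all genes. Against NB A1 alone the 6h median of the 9 was 0.56, the opposite direction. How many genes were called at 6h rests on single libraries: 244 with all of them, and 9 to 1011 with 1 left out.

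**Figure D3:**
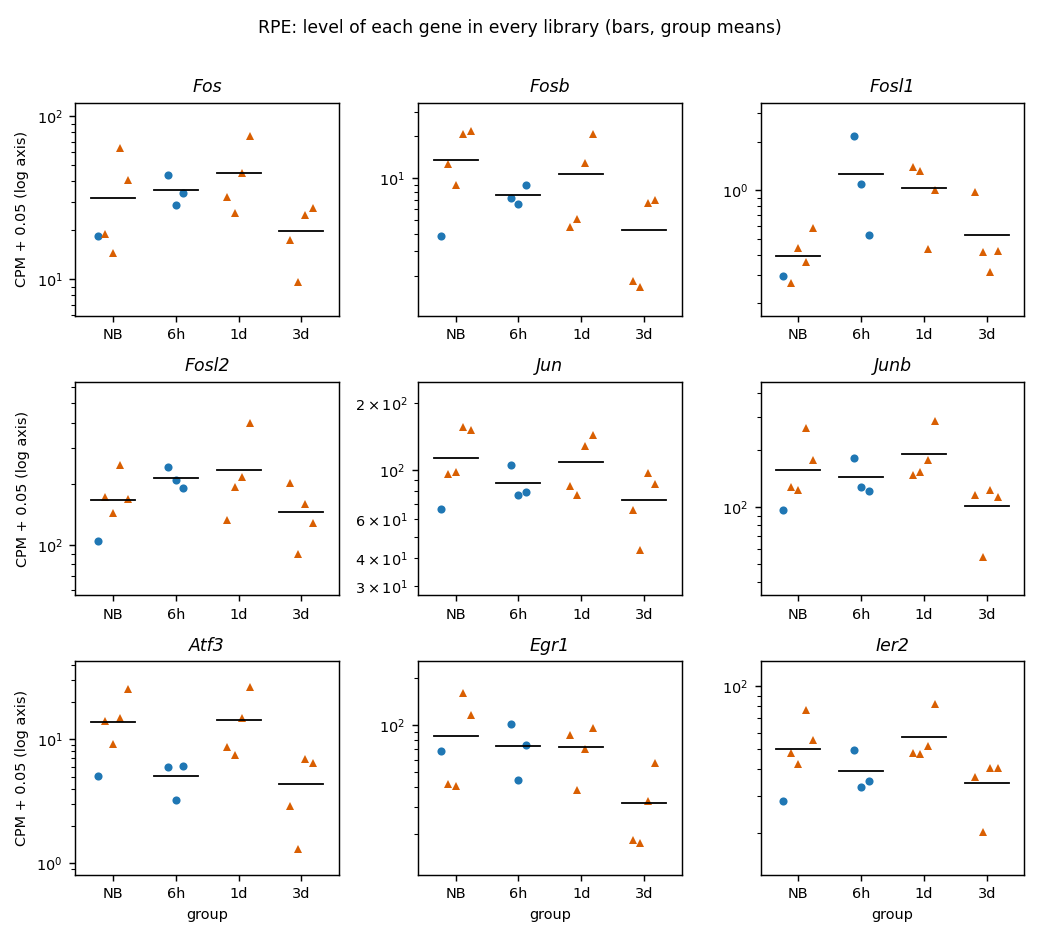
Level of each gene in every RPE library, as CPM + 0.05 on a log axis, by group; circles are libraries of the deeper set, triangles of the shallower set, and bars are group means. Each time overlaps with NB for every gene, and Fosl2 lies between 90.2 and 397 CPM throughout.

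Fosl1 was near or below 1 CPM in most RPE libraries. NB held 0.246, 0.219, 0.392, 0.311 and 0.537 CPM, 6h 2.13, 1.04 and 0.483 CPM, 1d 1.34, 1.27, 0.386 and 0.952 CPM and 3d 0.926, 0.366, 0.261 and 0.372 CPM. The lowest 6h and 1d libraries lay inside the NB range. The log2 differences of Fosl1 were 0.93 ± 0.31, 0.78 ± 0.29 and 0.19 ± 0.29.

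Atf3, Fosb and Egr1 had lower means at 3d than in NB, with overlap. Atf3 held 5.0, 13.9, 9.10, 14.8 and 25.5 CPM in NB, 5.89, 3.16 and 6.05 CPM at 6h, 8.60, 7.37, 14.7 and 26.5 CPM at 1d and 2.85, 1.25, 6.87 and 6.40 CPM at 3d. At 3d 2 of 4 libraries lay below NB A1, the lowest NB library. The log2 differences of Atf3 were -1.22 ± 0.53 at 6h, 0.07 ± 0.49 at 1d and -1.59 ± 0.49 at 3d, and that at 6h was -0.04 against A1 alone, the 1 RPE library of NB in the deeper set. Fosb stood at 3.81, 12.5, 8.86, 20.8 and 21.7 CPM in NB and at 1.77, 1.61, 6.60 and 6.92 CPM at 3d (log2 difference -1.59 ± 0.54). Egr1 stood at 67.8, 42.1, 40.8, 160.2 and 117 CPM in NB and at 18.4, 17.5, 32.5 and 57.0 CPM at 3d (-1.39 ± 0.44). At 3d 2 of 4 libraries of Fosb and 3 of 4 of Egr1 lay below every NB library.

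Fosl2, Junb, Ier2, Jun and Fos differed widely among RPE libraries of the same group. The Fosl2 means for NB, 6h, 1d and 3d were 167 ± 52.1, 214 ± 25.3, 234 ± 114 and 145 ± 47.0 CPM (± SD). Those of Junb were 157 ± 65.9, 144 ± 33.8, 191 ± 65.2 and 102 ± 31.7 CPM. Those of Jun were 113 ± 38.5, 87.3 ± 15.5, 108 ± 32.8 and 73.1 ± 23.6 CPM. The ranges of each of these genes at each time overlapped with NB. The Ier2 means were 50.1 ± 17.8, 39.3 ± 8.97, 57.2 ± 16.5 and 34.5 ± 9.75 CPM, and those of Fos 31.3 ± 21.1, 35.2 ± 7.62, 44.6 ± 22.4 and 19.8 ± 8.10 CPM.

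The same RPE libraries stood apart in markers of surface epithelium, such as cornea and conjunctiva. RPE libraries held the 8 RPE markers at a summed 6010.0 to 23699 CPM, and also 7 of 8 surface epithelium markers (Krt5, Krt12, Krt14, Krt15, Krt6a, Trp63, Dsg1b) at a summed 11396 to 51928 CPM. In retina 3 of the 8 were in the table, at a summed 1.59 to 12 CPM. None of the 7 was at 0 in any RPE library; Krt5, a keratin of basal epithelium, averaged 10250.3 CPM in NB, and Krt12, a keratin of the cornea, 2155 CPM. By group the sum ran from 14365 to 39572 CPM in NB, 20184 to 31898 at 6h, 24877 to 51928 at 1d and 11396 to 30462 at 3d. Among the 16 RPE libraries, 1d 4 had the highest sum and NB B3 the next, and 3d 2 the lowest. Library 1d 4 also held the highest Fosl2 (397 CPM), Junb (287), Ier2 (81.8), Fos (75.8) and Atf3 (26.5), while Jun was highest in NB B3 (155 CPM, beside 144 in 1d 4). NB B3 was next in Fosl2 (247 CPM), Junb (263), Ier2 (76.6) and Fos (64.3), but not in Atf3 (14.8, beside 25.5 in NB B4). Library 3d 2 held the lowest Fosl2 (90.2 CPM), Junb (54.6), Ier2 (20.1), Fos (9.52), Atf3 (1.25) and Jun (43.6). The match did not hold throughout: 1d 2, with the next sum after NB B3 (32569 CPM), held the lowest Fos of 1d (25.4 CPM). Library 3d 2 also had the highest summed RPE (23699 CPM), Müller glia (11050), melanocyte (7316) and microglia and macrophage markers (385). The part of any of these markers in the levels was not tested.

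**Figure D4:**
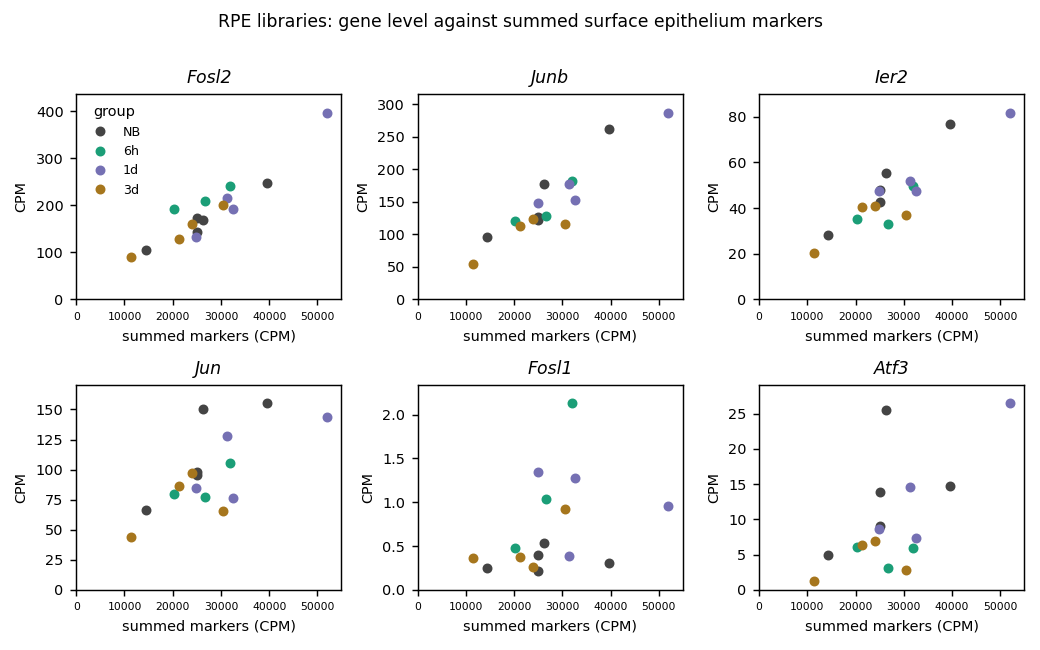
Level of 6 genes in CPM against the summed level of 7 surface epithelium markers in CPM, 1 point per RPE library, coloured by group. Fosl2, Junb and Ier2 are lowest in the library with the lowest sum (3d 2) and highest in the library with the highest sum (1d 4), while the highest Fosl1 level (2.13 CPM) is in library 6h 1.

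With the log2 of that sum as a covariate, a fit added after these values were seen, the differences between 1d and 3d in RPE were smaller. Fosl2 went from -0.64 to 0.03, Junb from -0.92 to -0.26, Ier2 from -0.73 to -0.15, Jun from -0.58 to -0.07 and Fos from -1.13 to -0.42 on the log2 scale. Between NB and 3d Atf3 went from -1.59 to -1.30, Fosb from -1.59 to -1.28 and Egr1 from -1.39 to -1.25. Between NB and 1d all 9 values moved down, and some grew in size. Atf3 went from 0.07 to -0.41, Fosb from -0.36 to -0.86, Jun from -0.04 to -0.36 and Egr1 from -0.10 to -0.33. Others were smaller in size: Fos (0.61 to 0.17), Fosl2 (0.42 to 0.01), Junb (0.32 to -0.09), Ier2 (0.23 to -0.14) and Fosl1 (0.78 to 0.65). Values at 6h moved less, as for Atf3 (-1.22 to -1.28) and Fos (0.38 to 0.32). In that fit 0 of the 9 genes were past the threshold. The sum itself differed with time (24877 to 51928 CPM at 1d and 11396 to 30462 at 3d). Its part and that of time therefore cannot be told apart by this fit, and the part of surface epithelium in the results was not tested. The summed RPE markers also moved, from 12997 to 23006 CPM in NB to 7891 to 11352 at 6h, 6010.0 to 10458 at 1d and 13394 to 23699 at 3d, and their part in the results was not tested.

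Each tissue was then set against its own NB, since the tables were scaled separately. The fit treated retina and RPE libraries as independent, although the labels do not say whether they come from the same mice. The genes were chosen on values of these libraries, so nothing is read from their counts past the threshold. The difference between the responses (RPE minus retina, limma on 15105 genes) was past the threshold for 6 of 9 genes at 6h, beside 17.6% of all genes, for 5 at 1d (21.7%) and for 2 at 3d (12.2%), lower in RPE each time. At 6h it was -4.45 ± 0.34 for Fosl1, -3.63 ± 0.56 for Atf3, -3.15 ± 0.32 for Jun, -2.53 ± 0.78 for Fosb, -2.19 ± 0.55 for Junb and -1.34 ± 0.42 for Ier2 on the log2 scale. Fosl1 (-1.74 ± 0.31) and Atf3 (-2.40 ± 0.51) were also past it at 3d. Fos (-1.67 ± 0.88), Fosl2 (-1.44 ± 0.52) and Egr1 (-1.89 ± 1.06) were not past the threshold at 6h. With NB libraries of the deeper set alone, of which RPE has 1, the 6h differences of Atf3 (-2.42), Fosb (-1.99), Junb (-2.21) and Ier2 (-1.02) were not past it, while those of Fosl1 (-4.27) and Jun (-2.57) were. The size for Fosl1 rests on the pseudocount, with -6.03 at 6h and -3.38 at 3d for a pseudocount of 0.1, and -3.10 and -0.72 for 2.

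**Figure D5:**
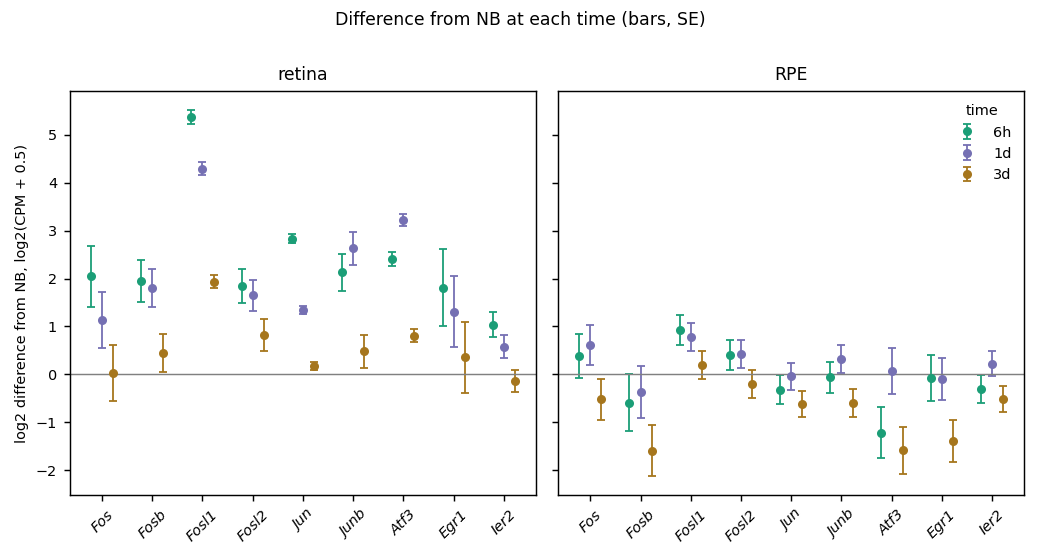
Difference from NB at 6h, 1d and 3d on log2(CPM + 0.5) for each gene, with its SE, in retina and RPE. In retina the 6h and 1d points lie above 0, highest for Fosl1 (5.38 and 4.29); in RPE the points lie between -1.59 and 0.93.

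The other genes of these pathways are read beside the share of all retina genes past the threshold in either direction, 35.4% at 6h, 51.5% at 1d and 43.2% at 3d. These lists were chosen with earlier results of these data known. Their counts, shares and p-values, here and in the paragraphs below for both tissues, are therefore a description and no independent support. Of 25 other bZIP genes, which pair with or resemble FOS and JUN, 14 rose and 1 fell at 6h, 15 rose and 4 fell at 1d, and 6 rose and 6 fell at 3d, with median log2 differences of 0.28, 0.21 and -0.01. The share called was 60.0%, 76.0% and 48.0%, and that at 3d is near the share of all genes. Cebpd, a C/EBP factor of the acute phase response, rose from 3.99 ± 1.14 CPM in NB to 60.8 ± 4.78 at 6h (log2 3.80 ± 0.15, adjusted p = 8.68e-13, limma). Maff, a small MAF factor without an activation domain, rose from 0.616 ± 0.416 to 9.85 ± 0.525 CPM at 6h (log2 3.29 ± 0.22, adjusted p = 2.21e-09). Its NB mean was below 1 CPM, so it can have passed the filter through the groups where it was high. Atf5, a stress-regulated factor, rose from 22.1 ± 3.74 to 74.9 ± 4.93 CPM at 1d (log2 1.76 ± 0.09, adjusted p = 1.67e-11). Nrl, the bZIP factor that specifies rods and 1 of the 8 rod markers above, fell from 1985 ± 113 to 626 ± 169.6 CPM at 1d (log2 -1.70 ± 0.12, adjusted p = 6.38e-10).

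Of 34 other immediate early genes, 25 rose and 0 fell at 6h, 17 rose and 1 fell at 1d, and 15 rose and 5 fell at 3d. Their median log2 differences were 0.84, 0.44 and 0.21. The share called was 73.5%, 52.9% and 58.8%, and that at 1d is near the share of all genes. Gadd45b, a stress and growth arrest gene, rose from 2.92 ± 0.766 to 25.5 ± 1.31 CPM at 6h (log2 2.95 ± 0.16, adjusted p = 1.17e-10) and to 37.6 ± 7.36 CPM at 1d (log2 3.48 ± 0.15, adjusted p = 7.26e-13). Klf10, a zinc finger repressor, rose from 7.42 ± 1.52 to 39.1 ± 2.88 CPM at 6h (log2 2.34 ± 0.14, adjusted p = 4.60e-10). Ier3, an early gene of the stress response, fell from 45.9 ± 4.34 to 30.3 ± 1.56 CPM at 3d (log2 -0.59 ± 0.07, adjusted p = 3.26e-06).

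Of 18 genes that dampen these pathways, 15 rose and 0 fell at 6h, 13 rose and 1 fell at 1d, and 8 rose and 2 fell at 3d (medians 0.59, 0.61 and 0.20). The shares called were 83.3%, 77.8% and 55.6%. Dusp8, a phosphatase of stress-activated MAP kinases, rose from 173 ± 9.79 to 416 ± 3.89 CPM at 6h (log2 1.26 ± 0.06, adjusted p = 5.89e-12). Socs3, which curbs cytokine receptor signalling, rose from 3.27 ± 0.501 to 68.8 ± 6.58 CPM at 1d (log2 4.20 ± 0.12, adjusted p = 2.12e-15). Nab2, a corepressor of EGR factors, rose from 8.80 ± 1.01 to 28.0 ± 4.57 CPM at 6h (log2 1.61 ± 0.12, adjusted p = 1.06e-08).

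Kinases and promoter-bound factors upstream of Fos, Jun and Egr1 had median log2 differences near 0 (0.14, 0.06 and 0.03). Of 25 tested, 11 rose and 2 fell at 6h, 8 rose and 7 fell at 1d, and 5 rose and 4 fell at 3d. The shares called were 52.0%, 60.0% and 36.0%, of which those at 1d and 3d are near the share of all genes. Map3k1, a kinase of the JNK pathway, rose from 80.4 ± 3.75 to 146 ± 6.61 CPM at 1d (log2 0.85 ± 0.05, adjusted p = 4.41e-11). Elk4, a partner of serum response factor, rose from 38.9 ± 2.08 to 54.3 ± 1.78 CPM at 6h (log2 0.48 ± 0.06, adjusted p = 1.05e-05).

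Of 28 genes with described AP-1 sites, 21 rose at 6h, 27 at 1d and 25 at 3d, and 0 fell at each time (medians 0.92, 1.97 and 1.08). The shares called were 75.0%, 96.4% and 89.3%, and nothing is read from them, since this list too was chosen with earlier results known. Mt2, a metallothionein, rose from 11 ± 1.87 to 109.8 ± 14.8 CPM at 6h (log2 3.27 ± 0.14, adjusted p = 2.40e-12), and Icam1, an adhesion molecule, from 0.660 ± 0.190 to 14.2 ± 0.554 CPM (log2 3.68 ± 0.18, adjusted p = 1.82e-11). Icam1 averaged below 1 CPM in NB and can have passed the filter through the groups where it was high. Gfap, the filament of reactive glia, rose from 29.7 ± 2.87 to 527 ± 37.7 CPM at 1d (log2 4.13 ± 0.12, adjusted p = 4.98e-15). Spp1, a secreted phosphoprotein, rose from 10.3 ± 0.768 to 84.7 ± 23.0 CPM at 3d (log2 2.95 ± 0.13, adjusted p = 8.88e-12). At 3d the summed level of 7 microglia and macrophage markers was 109 to 123 CPM beside 27.5 to 41.4 in NB, and its part in the level of Spp1 was not tested.

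In RPE the lists are read beside the 1.46% of all genes past the threshold at 6h, 5.61% at 1d and 0.180% at 3d. At 6h Cebpd rose (12.2 ± 4.19 to 34.8 ± 4.40 CPM, log2 1.53 ± 0.24, adjusted p = 0.00981), and of the genes that dampen the pathways 2 rose and 2 fell. Of 30 immediate early genes, 25 upstream genes and 31 genes with AP-1 sites, 0 were called at 6h with limma or edgeR. With limma 6, 3 and 6 of them had an unadjusted p below 0.05, beside 3036 of all 16712 genes. At 1d Socs3 rose from 8.0 ± 2.36 to 39.1 ± 6.19 CPM (log2 2.26 ± 0.21, adjusted p = 1.51e-05), and 7 genes with AP-1 sites rose and 0 fell. Of the genes that dampen the pathways 3 rose and 4 fell, among the latter Dusp4, a MAP kinase phosphatase (log2 -1.15 ± 0.23, adjusted p = 0.00737). Of the immediate early genes 2 rose and 2 fell, among the latter Ccn2, a matricellular protein (log2 -0.92 ± 0.19, adjusted p = 0.00727). Among genes with AP-1 sites Timp1, an inhibitor of matrix proteases, rose from 2.92 ± 0.823 to 21.5 ± 7.06 CPM (log2 2.67 ± 0.28, adjusted p = 3.34e-05). At 3d Mmp12, a macrophage protease (0.501 ± 0.295 to 3.27 ± 1.07 CPM, log2 1.93 ± 0.28, adjusted p = 0.00644), and Spp1 (10.9 ± 6.10 to 39.1 ± 11.2 CPM, log2 1.89 ± 0.30, adjusted p = 0.0141) were the 2 genes called in the 5 lists. The other 4 lists had 3, 6, 3 and 3 genes at an unadjusted p below 0.05 (limma) and 0 called by edgeR. Of all 16712 genes, 1659 had such an unadjusted p at 3d. Mmp12 averaged below 1 CPM in NB and can have passed the filter through the groups where it was high.

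The tissue difference was past the threshold for 15 of 30 immediate early genes at 6h, all lower in RPE, among them Klf10 (log2 -3.16 ± 0.30, adjusted p = 2.22e-08), beside 17.6% of all genes in either direction. With NB of the same depth set the 6h calls over all genes went from 2653 to 887. It was past it for 17 of 26 genes with AP-1 sites at 1d, all lower in RPE, among them Mt2 (log2 -2.54 ± 0.23, adjusted p = 4.18e-09), beside 21.7% of all genes in either direction.

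The genes most like each of these genes over the 17 retina libraries were found by Pearson's r on log2(CPM + 0.5), over 14493 genes for Fos; libraries share groups and depth, so r is a description. Fos was closest to Npas4, an activity-dependent neuronal factor (r = 0.977), then to Egr1 (0.971) and Ier2 (0.966). Jun was closest to Klf11 (0.989), Mnt (0.985) and Brd2 (0.980). Fosl1 was closest to 9330188P03Rik (0.990), Adamts1 (0.986) and Icam1 (0.985), and Atf3 to Bcl6 (0.985), Gadd45g (0.983) and Sbno2 (0.980). Fosb was closest to Junb (0.955) and Fosl2 to Spry4 (0.950). Over the 16 RPE libraries Fosl2 was closest to Arhgef4 (0.966), to the desmosome gene Dsp (0.955) and to Klf4 (0.952), a factor of epithelia. Ier2 was closest in RPE to Junb (0.964), Myd88 (0.963) and Sfn (0.959), a gene of stratified epithelium.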

How the data were processed

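The 33 RNA samples of retina and RPE were analysed; the 34 ATAC samples are not analysed here. The submitters' processing notes name Trimmomatic, STAR, edgeR and GRCm38, without versions or the read counter. Per the file headers, the deposited signal values are CPM on an effective library size computed by the authors; within 0.01 of a read, nearly all are whole multiples of 1 read, from which reads were recovered. Log2 fold changes deposited by the authors were copied where named.

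Retina libraries held 22.6 to 32.4 M reads (5 libraries, 6h and NB A) or 9.45 to 15.2 M (12), and RPE libraries 23.1 to 26.8 M (4) or 11.5 to 14.4 M (12). NB columns were matched to their group only. P-values measure the spread among these samples.

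Genes with at least 1 CPM in at least 3 libraries entered limma 3.58.1 (R 4.3.3) on log2(CPM + 0.5), with all groups of a tissue in 1 fit and a variance trend; p-values were Benjamini-Hochberg adjusted over all genes (threshold 0.05). The procedure was tested on simulated data. Other settings were a pseudocount of 0.1 or 2, no filter, TMM scaling, edgeR 4.0.16 on recovered reads, NB of the same depth set, each library left out and a replicate block. Identifiers without a symbol numbered 6 in retina and 7 in RPE. Named list genes had the smallest adjusted p among those called, up to 4 per list against NB and up to 2 otherwise, of which a part is printed; neighbours in pattern needed a mean of 2 CPM. Genes, lists and tests were chosen with earlier results of these data known.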

Additional observations from a re-analysis of the deposited data

Results flagged for a closer look

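In 5 of 54 groups of a gene (9 genes, groups of 4 to 6 libraries), 1 library stood farther from the rest than a 95% limit for its group size; chance gives about 1 in 20. In retina these were Jun in library 1d 2 (94.5 CPM, low) and Atf3 in 3d 1 (10.4 CPM, high). In RPE they were Fosl1 in 3d 1 (0.926 CPM, high), Junb in 3d 2 (54.6 CPM, low) and Ier2 in 1d 4 (81.8 CPM, high); 3d 2 and 1d 4 are also the libraries with the lowest and the highest surface epithelium sum.

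The response differed between tissues (RPE minus retina, log2 scale, limma over 15105 genes) for 6 of the 9 genes at 6h, beside 17.6% of all genes: Fosl1 (-4.45), Atf3 (-3.63), Jun (-3.15), Fosb (-2.53), Junb (-2.19) and Ier2 (-1.34). At 1d (21.7% of all genes) it differed for Fosl1 (-3.51), Atf3 (-3.16), Junb (-2.31), Fosb (-2.17) and Jun (-1.39), and at 3d (12.2%) for Atf3 (-2.40) and Fosl1 (-1.74). The genes were chosen on values of these libraries, so nothing is read from the counts. With NB of the same depth set the 6h differences of Atf3, Fosb, Junb and Ier2 were not past the threshold.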

How the results depend on the processing

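Of 2133 values of the 9 genes under alternatives, 2085 moved by less than 1 SD within groups, 48 by more, and 0 that had been past the threshold changed direction. Numbers of genes called in retina stayed within 1.5 times the reported ones under the alternatives run, except for the replicate block at 1d against 6h (3353 in place of 5932, and 4223 in the same groups without it). For RPE 6h against NB (244) edgeR gave 383, the same depth set 32, the epithelium covariate 1561 and library totals 147; without 1 library the range was 9 to 1011 (6h 1, 9; 6h 3, 17; NB B2, 40; NB B1, 41; NB B4, 67; 6h 2, 442; NB A1, 1011). RPE 1d against NB (937) ranged from 618 without NB B2 to 1426 without NB B3. RPE 3d against NB (30) was 87 with the covariate and ranged from 15 to 35 (NB B1, 15; 3d 1, 16; NB B3, 18). RPE 1d against 6h (567) was 1044 with the covariate, 299 with library totals, 9 with the replicate block and 185 in the same groups without it; it ranged from 46 to 724 (6h 3, 46; 6h 1, 66; 1d 4, 121; 1d 2, 176; 6h 2, 184). RPE 3d against 1d (1100) was 366 with the covariate, 230 with the block and 527 without it in those groups, and ranged from 363 to 1196 (3d 2, 363; 1d 4, 447; 3d 4, 598). The tissue difference at 6h (2653) was 887 with the same depth set and ranged from 1536 to 3756 (RPE 6h 3, 1536; retina 6h 3, 1738). At 1d it ranged from 2634 to 3752 and at 3d (1842) from 1322 to 3273 (RPE NB A1, 3273). The cause was not tested.

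The replicate block was fitted for 1d against 6h and 3d against 1d; with it 8 of the 9 genes were past the threshold in retina at 1d against 6h (19.8% of all genes), 9 at 3d against 1d (15.5%) and 3 in RPE at 3d against 1d (1.38%). Without the block the same groups gave 6 (24.9%), 7 (16.7%) and 0 (3.15%). No paired analysis was possible in the comparisons with NB because NB columns were matched to their group only and carry no number of a single sample. Where NB of the same depth set left 1 RPE library, that library is assumed to vary like the other groups. Libraries with the same number correlated at -0.54 to 0.28 in retina and -0.22 to 0.16 in RPE after group means were removed; not every pair was above 0.1, so the numbers were not taken as pairs. TMM factors gave back the deposited values, so they are no check of the scaling. Against NB A1 alone the RPE 6h median of the 9 genes went from -0.08 to 0.56. Library totals, the covariate, the unblocked partner of the block and leaving libraries out of the tissue difference were added after the data were seen. Library totals put the median log2 difference of all genes at 0.15 in retina at 1d, 0.12 at 3d and 0.13 at 1d against 6h, and at -0.17 for the tissue difference at 1d; the share of calls that were higher in retina went from 46.5% to 74.3% at 1d and from 44.6% to 76.9% at 3d. Of the shares of higher calls at 1d against 6h, retina went from 49.9% to 75.3% and RPE from 52.0% to 37.1%; RPE 6h went from 55.3% to 81.0% and the tissue difference at 1d from 44.4% to 17.1% and at 3d from 51.4% to 22.0%. Fosl1 depends on the pseudocount: its retina 6h difference was 7.45 with 0.1 and 3.53 with 2. Its low reads in NB and RPE limit its precision.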

Other observations

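At 1d and 3d in each tissue, both libraries numbered 3 and 4 held more Fos, Fosb and Ier2 than both numbered 1 and 2 in 4 of 4 groups. Junb, Egr1 and Fosl2 did so in 3 of 4 groups, Jun and Atf3 in 2 and Fosl1 in 0. This split was chosen after its values were seen and was not tested, and the labels do not say what the numbers stand for. They also do not say whether retina and RPE libraries come from the same mice, so the groups of the 2 tissues need not be independent.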
